A study of Arabidopsis thaliana with 16 samples.

Results

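AT2G27680, AT1G02020 and AT4G27250 are 3 Arabidopsis thaliana genes for oxidoreductases of different families, the aldo/keto reductases, the nitroreductases and the NAD(P)-binding Rossmann-fold proteins. Each was taken as the probe whose annotation names that gene and no other, which gave 3 of the 691 genes so named, on 692 of the 3439 probes of an array. They were chosen by their difference in intensity between the mutant and the wild type (WT) in these same arrays, so their levels are given as a description, without a test. The family names come with the choice of the genes. The data are expression arrays of total RNA from 8 WT samples and 8 samples of pete1, a mutant without 1 plastocyanin isoform. Both groups were ecotype Columbia 0 and grew on soil. The labels give no organ or age, nor do they tell whether replicates are different plants, so the spread between arrays may be technical. The number of arrays limits the precision.

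Plastocyanin is the copper protein of the thylakoid lumen that carries electrons from the cytochrome b6f complex to photosystem I. From there electrons pass to ferredoxin and on to NADP+, and the NADPH made in this way is the reductant for many plastid enzymes. Aldo/keto reductases use NADPH to reduce aldehydes and ketones to alcohols. Nitroreductase family proteins are flavin enzymes that take electrons from NADH or NADPH. The Rossmann fold is the fold that binds the nicotinamide cofactor in many dehydrogenases and reductases.

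Values are spot intensities on a linear scale that starts at 0 and ends at 100. Between 13.2% and 17.8% of the values on a WT array were 0, against 15.8% to 24.6% on a pete1 array. Array medians ran from 0.129 to 0.193 in WT, from 0.0524 to 0.0856 on pete1 replicates 1 to 4 and from 0.196 to 0.205 on pete1 replicates 5 to 8. Deposited values of different arrays are therefore not on 1 scale, and 3 further measures are used below. The percentile rank places a probe among the 3439 probes of its own array. The multiple of the array median divides a value by the median of that array's values above 0. The log2 level is the quantile-normalized intensity on the log2 scale, with low values raised to a floor. None of the 1-gene probes names a plastocyanin gene (0 of 2 measured), so the mutation itself could not be checked on these arrays. Of 13 marker genes of root, flower and leaf 0 had a 1-gene probe, so the organ was not checked either. Of the leaf markers 1 was on the array, only on a probe that names several genes. In RNA of whole samples, fewer cells of a type and less RNA per cell cannot be told apart.

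The aldo/keto reductase family gene AT2G27680 was listed at 0 on all WT arrays and was above 0 on all pete1 arrays. Its deposited intensity in pete1 was 0.402, 0.508, 0.452 and 0.390 on replicates 1 to 4 and 0.544, 0.650, 0.674 and 0.377 on replicates 5 to 8. As deposited, the highest pete1 value was 1.79-fold the lowest, and the groups did not overlap. As a multiple of the array median the pete1 values spread more widely, from 1.41 to 5.54. Because the WT values are 0, no fold change is given.

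**Figure D1:**
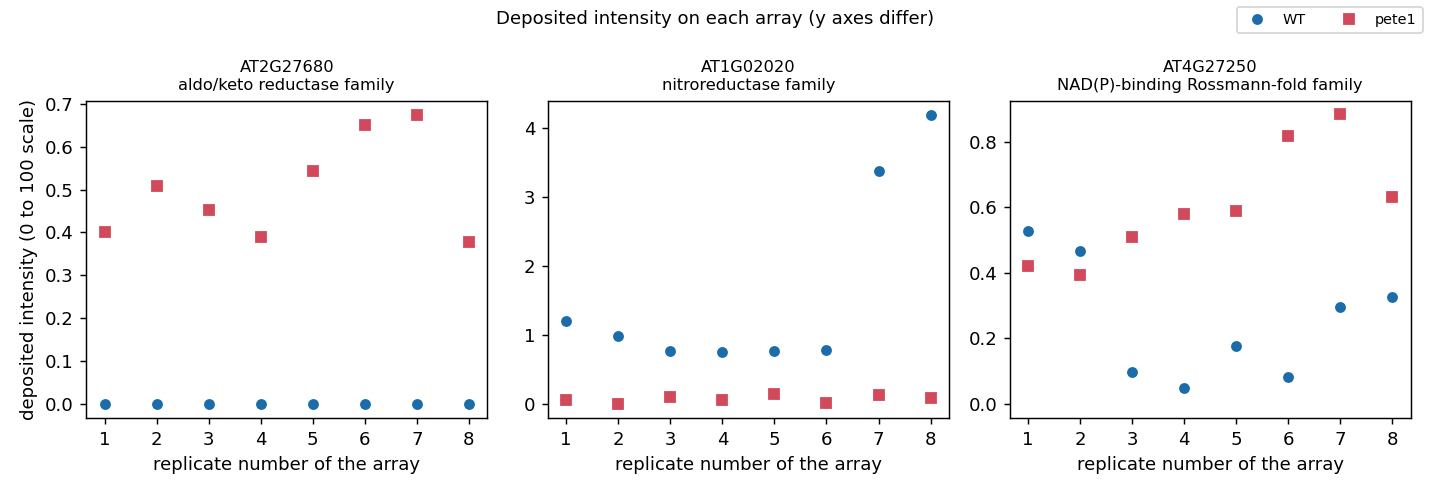
Deposited intensity (linear, 0 to 100 scale, y axes differ) of the 3 genes on each array, against the replicate number in the sample title. Circles are WT and squares are pete1. AT2G27680 was at 0 on every WT array, AT1G02020 was highest on WT replicates 7 and 8 (3.37 and 4.18), and AT4G27250 overlapped between groups through WT replicates 1 and 2 (0.528 and 0.467).

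This pattern was the only 1 of its kind on the array: 1 of 3439 probes (0.0291%) was 0 on all WT arrays and above 0 on all pete1 arrays. The reverse pattern, 0 on all pete1 arrays and above 0 on all WT arrays, was found for 0 of 3439 probes (0%). In all, 212 probes were at 0 on every WT array, and 62 of these were at 0 on every pete1 array too. A further 1 of the 212 was above 0 on 7 pete1 arrays and another 1 on 6. Of the 212 probes AT2G27680 had the highest median intensity in pete1, 0.480, followed by a probe that names no single gene at 0.132. Conversely, 98 probes were at 0 on every pete1 array, and no such probe was above 0 on more than 6 WT arrays.

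The pete1 values of AT2G27680 lay well within the range of measured transcripts. Its percentile rank in pete1 was lowest at 69.6 on replicate 8, had a median of 83.8 and was highest at 90.1 on replicate 2. In WT the percentile was 6.62 to 8.90, which is the shared rank of all probes at 0 on an array. The median percentile rose by 75.7 points from WT to pete1, the largest rise of the 3439 probes. The log2 level in pete1 was -0.85 ± 0.50 (SD, n = 8 arrays), and -0.85 ± 0.44 over the averages of 4 pairs of arrays with consecutive replicate numbers, which resemble each other (their deviations from the group mean correlate with a median of 0.439, against -0.300 for other arrays of a group). Pair averages ran from -1.32 for pete1 replicates 7 and 8 to -0.27 for replicates 1 and 2. Of the 4 pete1 pairs the within-pair difference was largest for replicates 7 and 8, at 0.95 on the log2 scale.

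How the dimmer and the brighter pete1 arrays compare for this gene depends on the measure. Intensities as deposited were 0.390 to 0.508 on the 4 dim arrays (replicates 1 to 4) and 0.377 to 0.674 on the 4 bright ones, and overlapped. As a multiple of the array median the level was 3.30 to 5.54 on the dim arrays and 1.41 to 2.58 on the bright ones. How much of this difference comes from dividing by a lower median was not tested. The percentile was 82.8 to 90.1 on the dim and 69.6 to 84.0 on the bright arrays, and overlapped. With the dim arrays left out the log2 change of AT2G27680 was 4.40, and with the bright ones left out 5.15, against 4.89 over all. These 3 changes are measured against the floor in WT and are no estimate of its true size. The probes numbered just before and after that of AT2G27680 were at 0 on all WT arrays, and were above 0 on 0 and on 3 pete1 arrays. How probe numbers relate to positions on the array is not given in the sources used here.

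The nitroreductase family gene AT1G02020 went the opposite way, from a bright signal in WT to a dim one in pete1. Its deposited intensity in WT was lowest at 0.752, had a median of 0.875 and was highest at 4.18. In pete1 the lowest intensity was 0.00139, the median 0.0689 and the highest 0.140. The groups did not overlap, although all 16 values were above 0: the highest pete1 value, on replicate 5, was below the lowest WT value, on replicate 4.

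The WT arrays of AT1G02020 fell into pairs. Replicates 7 and 8 read 3.37 and 4.18, replicates 1 and 2 read 1.19 and 0.976, and the remaining 4 arrays lay between 0.752 and 0.775. Replicates 7 and 8 were thus the bright end of a 5.56-fold range within WT. As a multiple of the array median they stood at 14.2 and 16.8, whereas the other 6 WT arrays stood between 3.70 and 5.88. In pete1 the same quantity was 0.0152 to 0.820, so every pete1 array lay below its own array's median of positive values. Replicates 2 and 6 were the lowest pete1 arrays, at intensities of 0.00139 and 0.00641, and both were at the floor of their array.

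In percentile rank AT1G02020 lay between 85.7 and 97.6 in WT, with a median of 89.6. In pete1 it lay between 17.3 and 54.2, with a median of 38.4. The median percentile fell by 51.3 points, which was the 10th largest fall of the 3439 probes. The log2 level was 0.28 ± 1.11 in WT and -3.61 ± 0.90 in pete1 (SD, n = 8 each), a log2 change of -3.89 (SE 0.47, or 0.59 with consecutive arrays averaged). Without WT replicates 7 and 8 the change was -3.35, and without the dim pete1 arrays it was -4.12. The 4 pair averages ran from -0.65 to 1.96 in WT and from -4.33 to -2.92 in pete1.

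**Figure D2:**
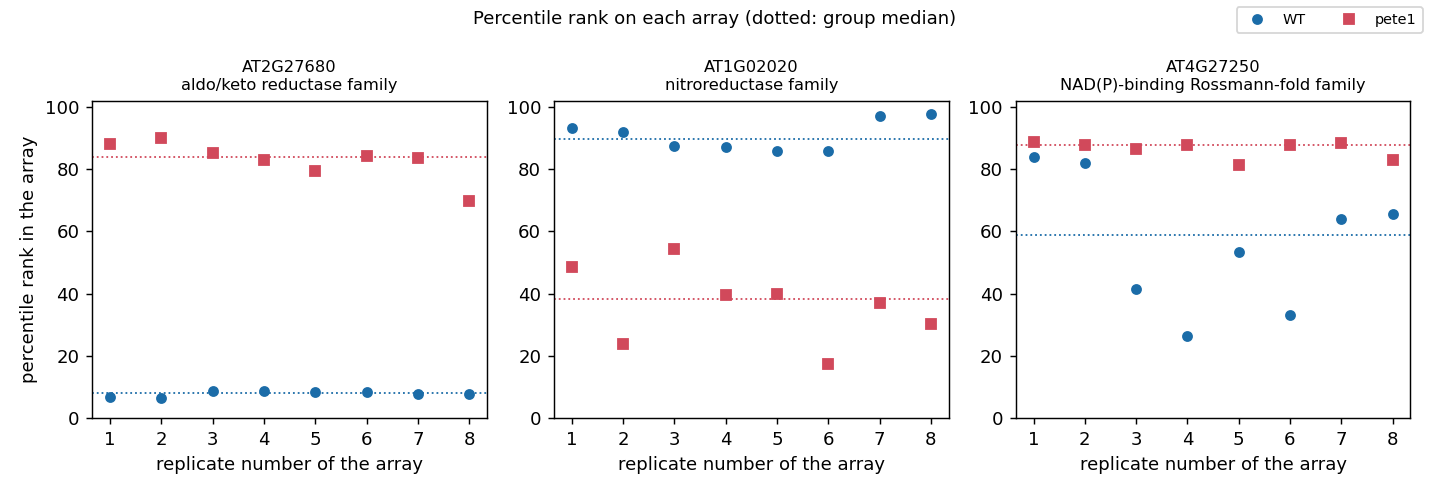
Percentile rank of the 3 genes among the 3439 probes of each array, against the replicate number. Circles are WT, squares are pete1, and dotted lines are group medians. AT2G27680 rose from the shared rank of values at 0 to a median of 83.8, AT1G02020 fell from a median of 89.6 to 38.4, and AT4G27250 had ranks of 81.2 to 88.6 in pete1 and 26.4 to 83.9 in WT.

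AT4G27250, of the NAD(P)-binding Rossmann-fold family, was above 0 on all 16 arrays and was the member whose groups overlapped. Its deposited intensity in WT was lowest at 0.0479, had a median of 0.237 and was highest at 0.528. In pete1 it was lowest at 0.392, had a median of 0.585 and was highest at 0.885. The overlap came from WT replicates 1 and 2, at 0.528 and 0.467, which exceeded some pete1 arrays. The other 6 WT arrays lay between 0.0479 and 0.327, below every pete1 array.

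By intensity 5 of 8 pete1 arrays lay above all WT arrays, and by percentile rank 6 of 8. No count over all probes is set beside these, so they only describe the overlap. The percentile of AT4G27250 was 81.2 to 88.6 in pete1, with a median of 87.6. In WT it was 26.4 to 83.9, with a median of 58.7. The 2 pete1 arrays inside the WT range by rank were replicates 5 and 8, at 81.2 and 83.0, which are not the arrays that were lowest by intensity. The median percentile rose by 29.0 points, the 57th largest rise of the 3439 probes.

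The spread of AT4G27250 differed between the groups. The SD of its percentile rank was 21.4 in WT and 2.72 in pete1, a ratio of 7.87, where the median ratio over all probes was 0.854. A ratio at least as high was found for 34 of 3439 probes, this gene included. For AT1G02020 the SDs were 4.88 in WT and 12.2 in pete1, and 524 probes had a ratio as low as its 0.399 or lower. These ratios are descriptions, since a percentile near 0 or 100 has less room to vary.

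On the log2 scale AT4G27250 was -2.47 ± 1.24 in WT and -0.56 ± 0.27 in pete1 (SD, n = 8 each), a log2 change of 1.90 (SE 0.43, or 0.57 with consecutive arrays averaged). Pair averages in WT were -0.91 for replicates 1 and 2, -3.76 for 3 and 4, -3.15 for 5 and 6 and -2.05 for 7 and 8. In pete1 the 4 pair averages ran from -0.74 to -0.38. They lay above every WT pair although single arrays overlapped, and the share of all probes with such pairs is not given here. Without WT replicates 1 and 2 the change was 2.48, and without WT replicates 3 and 4 it was 1.45. Between the dim and the bright pete1 arrays the order again depended on the measure. Deposited intensities of AT4G27250 were lower on the dim arrays (0.392 to 0.581) than on the bright ones (0.589 to 0.885), and multiples of the array median were higher (4.28 to 4.91 against 2.30 to 3.32). Its percentiles overlapped, at 86.6 to 88.6 on the dim and 81.2 to 88.3 on the bright arrays.

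Against all probes, groups that did not overlap were uncommon in either direction. By deposited intensity 12 of 3439 probes (0.349%) were higher on every pete1 array than on any WT array, and 76 (2.21%) were lower. By percentile rank these were 46 probes (1.34%) and 58 probes (1.69%). AT2G27680 was among the higher probes and AT1G02020 among the lower ones by both measures, and AT4G27250 by neither. Since the genes were chosen for this contrast, nothing is read from their place in these counts.

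**Figure D3:**
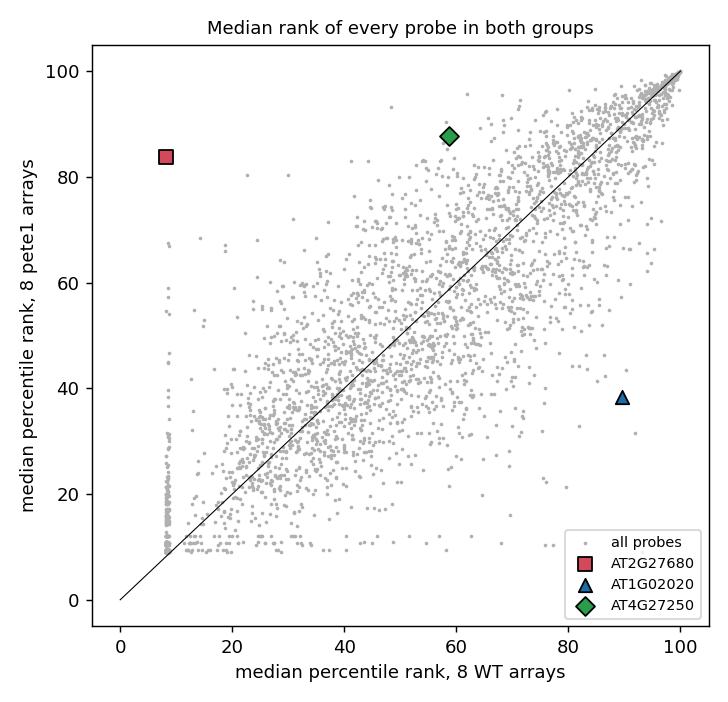
Median percentile rank over the 8 pete1 arrays (y axis) against that over the 8 WT arrays (x axis) for all 3439 probes (grey), with the 3 genes marked. The line marks equal rank. AT2G27680 (8.12 in WT, 83.8 in pete1) and AT4G27250 (58.7 and 87.6) lie above it and AT1G02020 (89.6 and 38.4) below it. Grey points stacked at the left edge are probes whose WT median was at 0.

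AT4G27250 and AT1G02020 can also be set against each other within each array, where no scaling between arrays is needed. The log2 ratio of the deposited values of AT4G27250 to AT1G02020, each with low values raised to the array's floor, ran from -3.97 to -1.06 in WT, with a median of -3.10. In pete1 it ran from 2.07 to 5.48, with a median of 3.005. The groups did not overlap. The ratio's size and sign on an array have no meaning by themselves, since probes differ in brightness per molecule. The shift between the groups shows that the probes changed unequally, not that they changed in opposite directions, and follows from how these genes were chosen. No such ratio is given for AT2G27680, which is at 0 in WT.

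The fitted log2 changes kept their sign under every setting tried. Across normalizations and floors, that of AT1G02020 ran from -4.45 to -3.71 and that of AT4G27250 from 1.62 to 2.06. That of AT2G27680 ran from 3.26 with 1 floor for all arrays to 7.13 with a lower floor, since its WT level is whatever floor is set. The median probe shifted by 0.22 on the log2 scale with quantile normalization and by -0.56 on the deposited scale. Both are smaller in size than these changes, but on the deposited scale AT4G27250 changed by only 1.62.

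**Figure D4:**
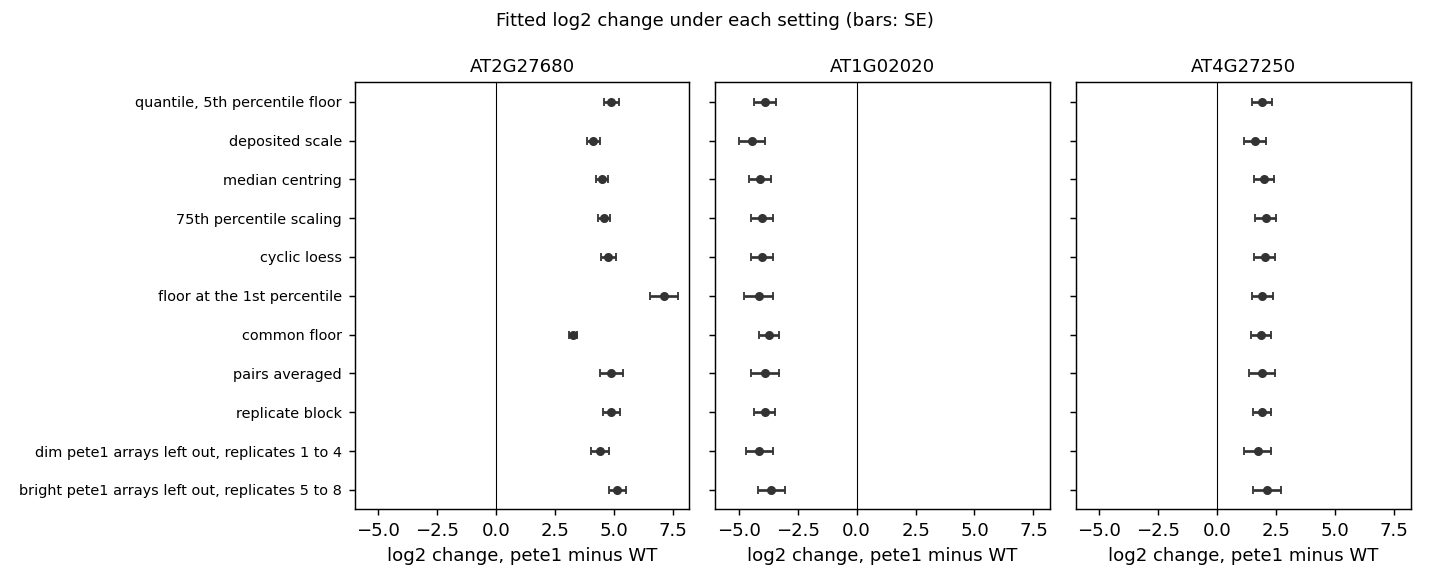
Fitted log2 change (pete1 minus WT, points) with its SE (bars) for the 3 genes, under 11 settings named on the y axis. AT1G02020 lies between -4.45 and -3.61 and AT4G27250 between 1.62 and 2.11. AT2G27680 is measured against the floor in WT and so moves with it, from 3.26 to 7.13. Pair averages and the replicate block leave the points in place by construction and alter only the bars.

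Few other genes of the related families and pathways have a probe of their own here. Of 20 listed aldo/keto reductase genes 1 was measured, of 12 listed Rossmann-fold reductases 0, and of 20 genes for plastocyanin's partners and NADPH supply 3. Of these 4 genes 0 passed the test across all probes (limma, Benjamini-Hochberg adjusted p under 0.05), and 1 had an unadjusted p under 0.05. Across all probes 464 of 3439 passed (13.5%), 283 higher (8.23%) and 181 lower (5.26%). At least these 464 probes also had an unadjusted p under 0.05, so nothing is read from the 1 gene. This fit treats the arrays as independent: with consecutive arrays averaged 5 probes passed higher and 4 lower, and on the deposited scale 27 passed higher and 242 lower. The fit also gives a log2 change of 0.84 to a probe at 0 on all 16 arrays, since the floors averaged higher in pete1. The aldo/keto reductase family gene AT1G04420 had a log2 change of 0.53 (SE 0.41; limma adjusted p = 0.375), with a median percentile of 55.4 in WT and 69.2 in pete1. Unlike AT2G27680 it was above 0 on all 16 arrays.

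The other 3 measured genes belong to photosystem I or to enzymes that use NADPH. PSAN, a lumenal subunit of photosystem I, had a log2 change of 0.56 (limma adjusted p = 0.271). NTRC, the plastid thioredoxin reductase that uses NADPH, had a log2 change of 0.67 (limma adjusted p = 0.0831). NADP-MDH, the plastid malate dehydrogenase that consumes NADPH, had a log2 change of -0.60 (limma adjusted p = 0.481). The median change of the 3 was 0.56, beside 0.22 over all probes.

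The 3 oxidoreductase genes lie on chromosomes 2, 1 and 4, as their locus names say, and are not neighbours. The nearest genes on either side with a probe of their own, taken from the gene order of the RefSeq TAIR10.1 table, were compared in the same fit. Of these 6 genes 0 passed the test, beside 13.5% of all probes. An unadjusted p under 0.05, which at least those 13.5% of probes had, was found for 1, and nothing is read from it. The closest was AT2G27630, with 3 protein-coding genes between it and AT2G27680, and its log2 change was 0.54 (limma adjusted p = 0.409). SPL, with 7 genes between it and AT4G27250, had a log2 change of -1.01 (limma adjusted p = 0.0591), opposite in sign to AT4G27250.

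Genes with a like pattern were ranked by Spearman correlation of the percentile rank over the 16 arrays, among 689 other probes with 1 gene. The arrays share their group and pair structure, so the values are descriptions. For AT1G02020 the closest were AT5G62360 (0.88), AT3G15490 (0.88) and AT1G63720 (0.86). The median percentile of AT5G62360 was 82.2 in WT and 50.9 in pete1, and its groups did not overlap. For AT4G27250 the closest were AT2G35390 (0.87), AT5G49800 (0.83) and the calmodulin-like gene CML41 (0.82). The percentile of CML41 was 35.6 to 47.6 in WT and 61.8 to 78.8 in pete1. For AT2G27680 the closest were AT1G53050 (0.93), AT3G01360 (0.90) and AT3G20920 (0.89). This likeness lies largely in values at 0, in WT for AT2G27680 and in both groups for these 3 genes. The shared rank of values at 0 moves with their number on an array. These 3 genes were above 0 on 0, 1 and 0 WT arrays and on only 1, 5 and 2 pete1 arrays. With Pearson correlation of the log2 levels, 2 of the 3 genes named for AT1G02020 were again among its closest 3, and 0 of those named for AT2G27680 or AT4G27250.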

How the data were processed

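Intensity values of 3439 probes on 16 arrays were used as the authors deposited them. That they are spot intensities on a scale from 0 to 100 was read from the values. How the arrays were scanned, corrected for background and scaled is not given in the sources used here. Groups and replicate numbers come from the sample titles. Probe names come from the platform annotation (692 probes name 1 gene, 870 several and 1877 none). Of the 692, 690 matched the RefSeq TAIR10.1 table, used for names and gene order only.

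R 4.3.3 and limma 3.58.1 were used. After quantile normalization the 5th percentile of the values above 0 on an array served as its floor, and lower values were raised to it before log2. All probes were fitted with lmFit and eBayes over 16 arrays, two-sided, without a block, with Benjamini-Hochberg adjustment over all probes at 0.05. The fit was tested on simulated data with independent noise on each array. That test covers neither the likeness of consecutive arrays nor values at the floor. Ties share the mean rank in percentile ranks.

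The 3 genes and all lists were chosen with earlier results of these data known. Named genes are the 3 genes, for each the 3 most alike, and the 2 members of each list with the smallest p; the NADP-MDH gene and the chromosomal neighbours were added after their values were seen. Alternatives were other normalizations, floors, pair averages, a replicate block and leaving out arrays.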

Additional observations from a re-analysis of the deposited data

How the results depend on the processing

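The changes of AT1G02020 and AT4G27250 kept their sign under all settings run. That of AT4G27250 went from 1.90 to 2.48 without WT replicates 1 and 2 and to 1.45 without WT replicates 3 and 4, moves larger than the SD of its pete1 arrays (0.27) and smaller than that of its WT arrays (1.24). Leaving out 1 array gave -4.01 to -3.64 for AT1G02020, 1.63 to 2.16 for AT4G27250 and 4.75 to 4.99 for AT2G27680 on the log2 scale. Leaving out 1 pair, or the dim or bright pete1 arrays, was chosen after seeing the data; 1 pair left out gave -4.17 to -3.35, 1.45 to 2.48 and 4.61 to 5.005. The change of AT2G27680 was 4.13 on the deposited scale, 7.13 with the floor at the 1st percentile and 3.26 with the common floor (the highest array floor, used on all arrays), because its WT level is the floor itself.

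The 283 higher calls became 27 on the deposited scale, 133 after median centring, 169 after scaling to the 75th percentile, 579 with the floor at the 1st percentile and 185 with the dimmest 25% of probes left out; the cause was not tested. With consecutive arrays averaged, which leaves fewer samples, 5 probes were called higher and 4 lower, in place of 283 and 181. Leaving out 1 array gave 167 to 659 higher calls and 136 to 213 lower; there were 659 higher calls without pete1 replicate 5, 167 without its replicate 1, 178 without its replicate 3, 187 without its replicate 4 and 188 without WT replicate 5. Of the 4 listed genes between 0 and 1 were called with 1 array left out; NADP-MDH passed without pete1 replicate 7 (log2 change -1.16, limma adjusted p = 0.0382; 0.0382 to 0.668 over its settings).

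As a check of pairing, deviations from the group mean were correlated between WT and pete1 arrays of the same number. The correlations ran from 0.0109 to 0.408 and exceeded 0.1 for 7 of 8 numbers. The best match had the same number for 14 of 16 arrays, a sign of pairing from the data alone. The main fit ignored pairing. With the replicate block 271 probes were called higher and 223 lower, and the SEs of the changes were 0.36 for AT2G27680, 0.44 for AT1G02020 and 0.401 for AT4G27250. Each number occurs once per group, so neither the block nor pair averages can move the changes themselves. No single array stood apart from the other 7 in any of 15 groups of values searched for the 3 genes. Such a search can miss 2 alike arrays that stand apart together, such as WT replicates 7 and 8 for AT1G02020. Values at 0 limit what dim probes can show.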
